A study of Mus musculus with 4 samples.

Results

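Transcript levels of 55 genes that license replication origins, unwind and copy DNA, load the sliding clamp PCNA, supply nucleotides and restore chromatin were described in mouse mammary tumour cells. The genes were listed by function, with earlier results of these data already known. All 55 were found, each once, among the 50679 genes of the deposited table. All 55 also passed the filter on low values (the 4 libraries had to average 1 FPKM or more), as did 12767 genes in all. FPKM counts sequenced fragments per kilobase and per depth of the library, so levels can be set side by side between genes. The transcript length used for each gene is not stated in the sources used here, so comparisons between genes are approximate.

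The 4 libraries came from tumour cells with the polyoma middle T oncogene (PyMT), 2 labelled PCNA 211F and 2 labelled PCNA WT. Every library was labelled as luminal epithelial adenocarcinoma from tumours of mice 10 weeks old. In every case cells were captured with an antibody to EpCAM, an epithelial surface protein, and grown in 10% serum after plating at a density of 100000. The promoter that drives PyMT, and whether libraries came from separate animals, are not stated in the sources used here. The p-values therefore measure the spread between these libraries, which the series text calls independent biological repeats.

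Replication starts from origins bound by the origin recognition complex (ORC), onto which Cdc6 and Cdt1 load the MCM2-7 helicase in G1. Cdc45 and the GINS complex join the helicase when origins fire, polymerase alpha with its primase lays down primers, and polymerases delta and epsilon extend them. Replication factor C (RFC) opens PCNA and closes it around DNA, and PCNA then tethers delta, Fen1, Lig1, Dnmt1 and the chromatin assembly factor CAF-1. Many of these genes are transcribed under control of E2F factors as cells enter S phase.

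The labels agreed only in part with cell type markers. The 12 epithelial markers summed to 3312 and 3624 FPKM in 211F, against 3119.6 and 7.28 FPKM in WT (libraries 1 and 2 of each genotype, in that order here and below). All 12 reached 1 FPKM in both 211F libraries and in WT 1, against 2 of 12 in WT 2. The capture antigen was nearly absent from WT 2, with Epcam at 77.3 and 450 FPKM in 211F, against 444 and 0.893 FPKM in WT. Keratin genes made up most of the epithelial sum in every library. Krt14 was the highest of the 12 in each, at 1297 and 1722 FPKM in 211F, against 1058 and 2.41 FPKM in WT. Krt5 was at 1029 FPKM in 211F 1. In 211F 2 Krt5 was at 3.84 FPKM. All 12 epithelial markers except Cldn4 and Krt5 were lower in 211F 1 than in 211F 2. Cldn7, for instance, was at 5.07 and 85.1 FPKM in 211F. The 8 mesenchymal markers summed to 4582 and 60.01 FPKM in 211F, against 372 and 3373 FPKM in WT. Fibroblast markers, 8 genes, summed to 46.00 and 6.27 FPKM in 211F, against 12.2 and 1078 FPKM in WT. Most of the sum in WT 2 came from Col1a1 (437 FPKM), Col1a2 (416 FPKM) and Col3a1 (118 FPKM). All fibroblast markers except Thy1 and Lum were highest in WT 2. Thy1 and Lum were highest in 211F 1, at 10.7 and 0.0222 FPKM. The leukocyte gene Ptprc was at most 0.0180 FPKM in all 4 libraries, the 8 lymphoid markers summed to at most 0.157 FPKM and the 7 endothelial markers to at most 2.05 FPKM. The 8 myeloid markers summed to 7.81 and 14.97 FPKM in 211F, against 69.6 and 11.99 FPKM in WT; Cd14 alone gave 67.2 FPKM of the sum in WT 1. The part of these markers in the results below was not tested, and in bulk RNA fewer cells of a type and less RNA per cell cannot be told apart.

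E2F motifs were looked for in the promoters of the listed genes. The list was chosen by function and holds many genes under E2F control, so the share with a motif is not independent of that choice. RefSeq windows on GRCm38.p6, from 250 bases before to 50 bases after each transcript start, were held for 46 of the 55 genes. The letters TTTCCCGC, TTTCGCGC, TTTGGCGC and TTTGCCGC were searched on both strands. At least 1 of them stood in a window of 19 of the 46 genes (41.3%), against 704 of 27025 genes in the RefSeq table (2.605%). Among the genes tested here that had a window, 466 of 9458 held one (4.93%). Stretches from licensing, helicase and methylation genes are given 5′ to 3′ on the strand of the gene, with every match in the stretch, on either strand, in capitals.
Orc1 (chr4:108579401-108579460, plus strand): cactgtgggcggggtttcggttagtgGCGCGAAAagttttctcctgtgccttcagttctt
Cdc6 (chr11:98907987-98908046, plus strand): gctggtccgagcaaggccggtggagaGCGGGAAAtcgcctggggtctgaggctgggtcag
Cdt1 (chr8:122568021-122568064, plus strand): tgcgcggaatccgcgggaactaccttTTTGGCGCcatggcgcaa
Mcm3 (chr1:20820263-20820319, minus strand): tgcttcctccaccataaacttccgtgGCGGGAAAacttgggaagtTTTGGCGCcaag
Mcm5 (chr8:75109330-75109389, plus strand): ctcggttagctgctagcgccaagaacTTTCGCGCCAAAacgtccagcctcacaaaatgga
Mcm6 (chr1:128359782-128359841, minus strand): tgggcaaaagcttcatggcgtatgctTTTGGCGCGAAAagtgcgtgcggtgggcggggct
Mcm7 (chr5:138172015-138172074, minus strand): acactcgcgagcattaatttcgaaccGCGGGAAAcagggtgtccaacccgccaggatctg
Dnmt1 (chr9:20952809-20952868, minus strand): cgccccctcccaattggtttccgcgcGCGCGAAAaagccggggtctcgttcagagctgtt
Uhrf1 (chr17:56304102-56304161, plus strand): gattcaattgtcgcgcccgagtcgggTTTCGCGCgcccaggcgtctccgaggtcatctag
The stretch from Mcm3 holds 2 separate matches, and in Mcm5 and Mcm6 the capitals span 2 matches that overlap on opposite strands. The 19 genes held 26 distinct matches in all. TTTCCCGC stood in 9 of the genes, TTTCGCGC in 9, TTTGGCGC in 7 and TTTGCCGC in 0. A match describes the letters of the window and is not a measured binding site.

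No gene of the 55 passed the test between 211F and WT, which does not show that their levels were equal, and most of them had similar levels in all 4 libraries. Together they summed to 2862 and 2542 FPKM in 211F, against 2761 and 2674 FPKM in WT, which was 0.507% and 0.461% of all FPKM in 211F and 0.507% and 0.487% in WT. The summed levels of the replication genes in both genotypes lay in a narrow band, unlike the markers of epithelial and mesenchymal state. A sum can hide single genes that change in opposite directions, and the markers were listed as genes of cell state. In limma (two-sided, Benjamini-Hochberg adjustment over 12767 genes), 0 of 55 had an adjusted p under 0.05, as had 0% of all genes tested. At an unadjusted p under 0.05 there were 0 of 55 genes, against 1.89% of all genes tested. The smallest p of the 55 belonged to Orc2, at a limma adjusted p = 0.9999. With 2 libraries a genotype, an exact permutation test of a single gene cannot go below p = 0.333 (two-sided).

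**Figure D1:**
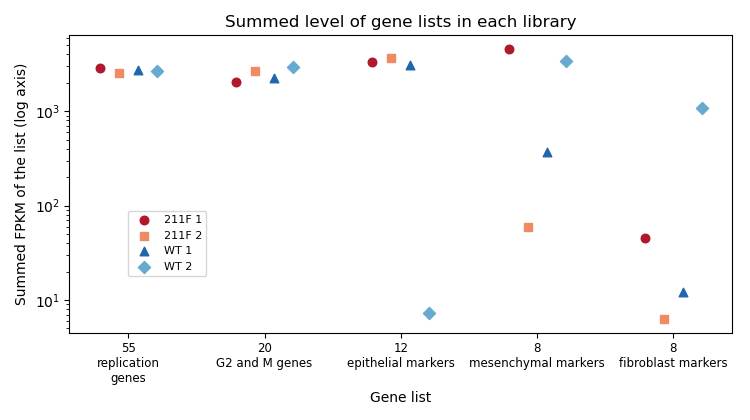
Summed FPKM (log axis) of 5 gene lists in each library, with 211F left of WT within each list. The 55 replication genes sum to between 2542 and 2862 FPKM in the 4 libraries, while the 12 epithelial markers sum to 7.28 FPKM in WT 2 and the 8 mesenchymal markers lie between 60.0 and 4582 FPKM.

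Differences are given as 211F minus WT on log2(FPKM + 1). They ran from -0.34 (Gins2) to 0.57 (Orc2), with 23 positive and 32 negative and a median of -0.039, beside a median of 0.028 over all genes tested. The standard errors ran from 0.21 to 0.66, with a median of 0.27. In 47 of the 55 genes the 2 libraries of at least 1 genotype differed from each other by more than the genotypes did. Both 211F libraries lay above both WT libraries in 5 of the 55 genes, against 15.2% of all genes tested, and below them in 6 of 55, against 11.6%. In either direction that is 11 of 55, beside 26.8% of all genes tested, so the genotypes stood apart no more often here than in genes at large. The split of 5 higher and 6 lower was 3 and 8 under quantile normalization. By role, 6 of 9 licensing genes had a positive difference (median 0.17), as had 7 of 14 helicase and firing genes (0.0018), 2 of 11 polymerase genes (-0.083) and 2 of 10 clamp loader, RPA and Okazaki fragment genes (-0.15). Fork protection genes were positive in 3 of 4 (0.067), nucleotide supply genes in 2 of 3 (0.036) and chromatin genes in 1 of 4 (-0.10).

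**Figure D2:**
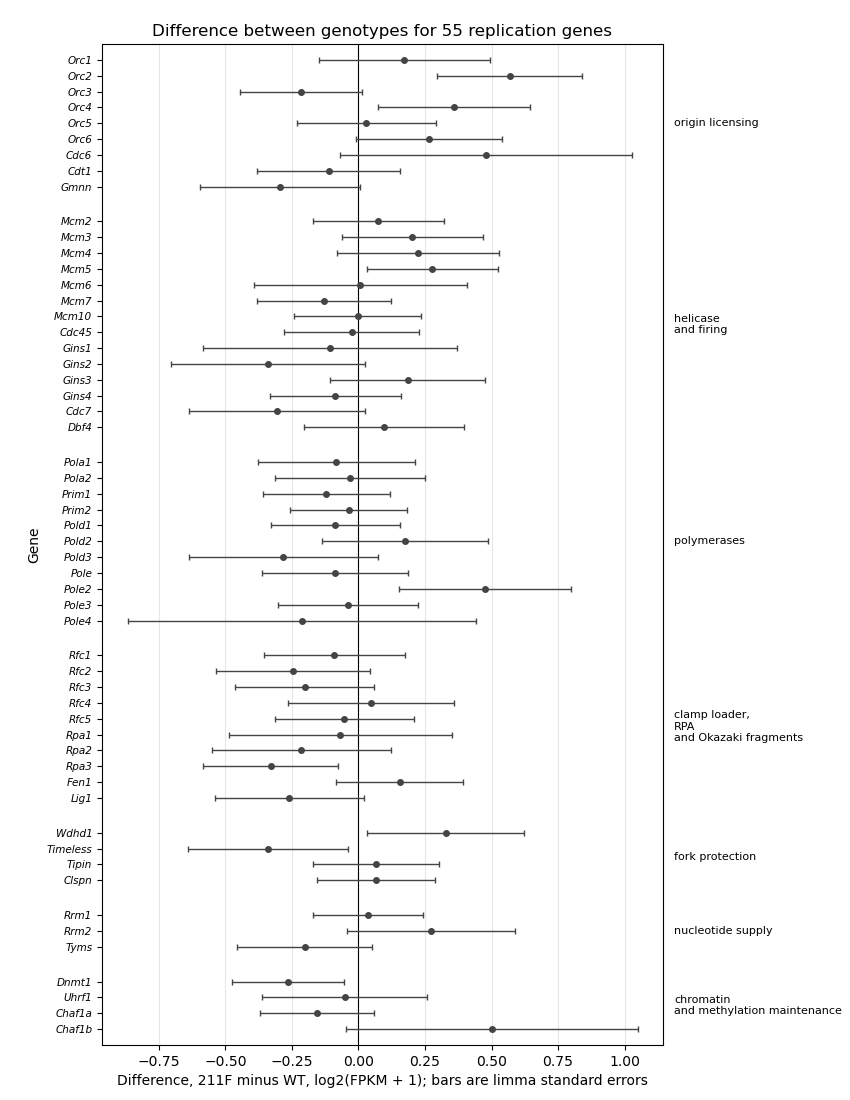
Difference between 211F and WT in log2(FPKM + 1) for each of the 55 genes, grouped by role, with the limma standard error as bars. The differences lie between -0.34 and 0.57, and none passed the test.

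Among the licensing genes, those of the origin recognition complex differed widely in level from one another. Orc2, a core subunit, averaged 61.1 FPKM over the 4 libraries, Orc4 45.9, Orc6 36.1, Orc3 24.97, Orc5 13.8 and Orc1 10.5 FPKM. Orc1, the subunit whose protein is cell cycle regulated in mammals, was thus the lowest of the 6. Between neighbours in this order the ranges over the libraries overlapped for Orc2 and Orc4 and for Orc4 and Orc6. They did not overlap for Orc6 and Orc3, Orc3 and Orc5, or Orc5 and Orc1.

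Orc2 (ENSMUSG00000026037; chr1:58462771-58505109, minus strand) was at 78.6 and 67.2 FPKM in 211F, against 41.3 and 57.4 FPKM in WT. Both 211F libraries were above both WT libraries, and the difference was 0.57 ± 0.27 (SE; limma adjusted p = 0.9999). Orc1 was at 10.5 and 11.9 FPKM in 211F, against 11.6 and 8.26 FPKM in WT and Orc6 at 45.6 and 33.7 FPKM in 211F, against 29.9 and 35.1 FPKM in WT, both with overlapping genotypes. Exons of Orc2 overlap Nif3l1 on the other strand, and how strand was treated in the FPKM is not stated in the sources used here. Orc3 had both 211F libraries below both WT libraries, at 22.5 and 23.5 FPKM in 211F, against 26.1 and 27.7 FPKM in WT, a difference of -0.22 ± 0.23 (SE). Orc4 was at 57.6 and 45.7 FPKM in 211F, against 33.9 and 46.6 FPKM in WT; 211F 1 was highest and WT 1 lowest, and the genotypes overlapped. Orc5 was among the most even genes, at 14.2 and 13.7 FPKM in 211F, against 13.04 and 14.3 FPKM in WT, and its highest library was 1.10 times its lowest.

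Cdc6 (ENSMUSG00000017499; chr11:98907801-98923940, plus strand), the ATPase that helps ORC load the helicase, varied most among the licensing genes. It was at 22.9 and 8.72 FPKM in 211F, against 11.5 and 8.56 FPKM in WT. The value of 211F 1 stood above the other 3 libraries, which lay between 8.56 and 11.5 FPKM, and the difference between genotypes was 0.48 ± 0.55 (SE). Its partner Cdt1 did not share that pattern, with 35.8 and 33.3 FPKM in 211F, against 43.9 and 31.8 FPKM in WT. Gmnn, which encodes the Cdt1 inhibitor geminin, was at 41.8 and 54.6 FPKM in 211F, against 70.3 and 49.3 FPKM in WT; WT 1 was highest and 211F 1 lowest. Thus 211F 1 held the highest Cdc6 and the lowest Gmnn of the 4 libraries.

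The 6 MCM2-7 subunits and Dbf4 were the most abundant of the helicase and firing genes. Mcm7 averaged 147 FPKM, Mcm6 127, Mcm5 96.9, Mcm2 72.8, Mcm3 72.1 and Mcm4 69.3 FPKM. The ranges over the libraries overlapped between each subunit and the next in this order. All 6 had 211F 1 above 211F 2 and WT 1 above WT 2, so replicates of one genotype differed in the same direction throughout the hexamer.

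Mcm2 was at 83.3 and 66.3 FPKM in 211F, against 76.8 and 64.8 FPKM in WT. Mcm4 had 91.8 and 59.2 FPKM in 211F, against 67.1 and 59.1 FPKM in WT, with 211F 2 and WT 2 nearly equal. Mcm5 (chr8:75109569-75128439, plus strand) was at 120.5 and 92.8 FPKM in 211F, against 92.4 and 81.97 FPKM in WT, the only subunit with both 211F libraries above both WT libraries. In Mcm5 211F 2 exceeded WT 1 by under 1 FPKM, the difference was 0.28 ± 0.25 (SE), and the genotypes overlapped under each of the 3 other scalings between libraries. Mcm6 showed the widest range of the 6, at 147 and 104 FPKM in 211F, against 166 and 91.2 FPKM in WT, and its difference of 0.0067 ± 0.40 (SE) turned negative under the 3 other scalings. Mcm3 ran from 60.2 FPKM in WT 2 to 88.5 FPKM in 211F 1. Mcm7, whose gene also hosts Mir25 and Mir93 and overlaps Ap4m1 and Cops6 on the other strand, ran from 124 FPKM in 211F 2 to 168 FPKM in WT 1.

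The factors that turn the loaded hexamer into a moving helicase were less abundant. Cdc45 averaged 27.9 FPKM and Mcm10, which binds it during firing, 24.1 FPKM; the highest library was 1.28 times the lowest for Cdc45 and 1.14 times for Mcm10. The GINS subunits form a complex of 4 proteins, yet Gins4 averaged 32.4, Gins2 29.1, Gins1 15.3 and Gins3 9.01 FPKM. Gins3 was at 9.20 and 10.1 FPKM in 211F, against 8.10 and 8.64 FPKM in WT, with both 211F libraries above both WT libraries by a small step (0.18 ± 0.29, SE). Gins1 was at 21.04 and 9.34 FPKM in 211F, against 17.4 and 13.3 FPKM in WT, so its 2 211F libraries held the highest and the lowest value of the 4. Gins2 was also uneven, with 31.7 and 19.8 FPKM in 211F, against 26.8 and 38.1 FPKM in WT.

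Origin firing also needs the kinase Cdc7 and its activator Dbf4. Dbf4 averaged 70.95 FPKM and Cdc7 15.3 FPKM, and their ranges did not overlap. Dbf4 was at 63.7 and 82.5 FPKM in 211F, against 56.7 and 80.96 FPKM in WT, with library 2 above library 1 in both genotypes. Cdc7 was at 12.4 and 14.4 FPKM in 211F, against 13.6 and 20.7 FPKM in WT, highest in WT 2, and its difference was -0.30 ± 0.33 (SE).

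**Figure D3:**
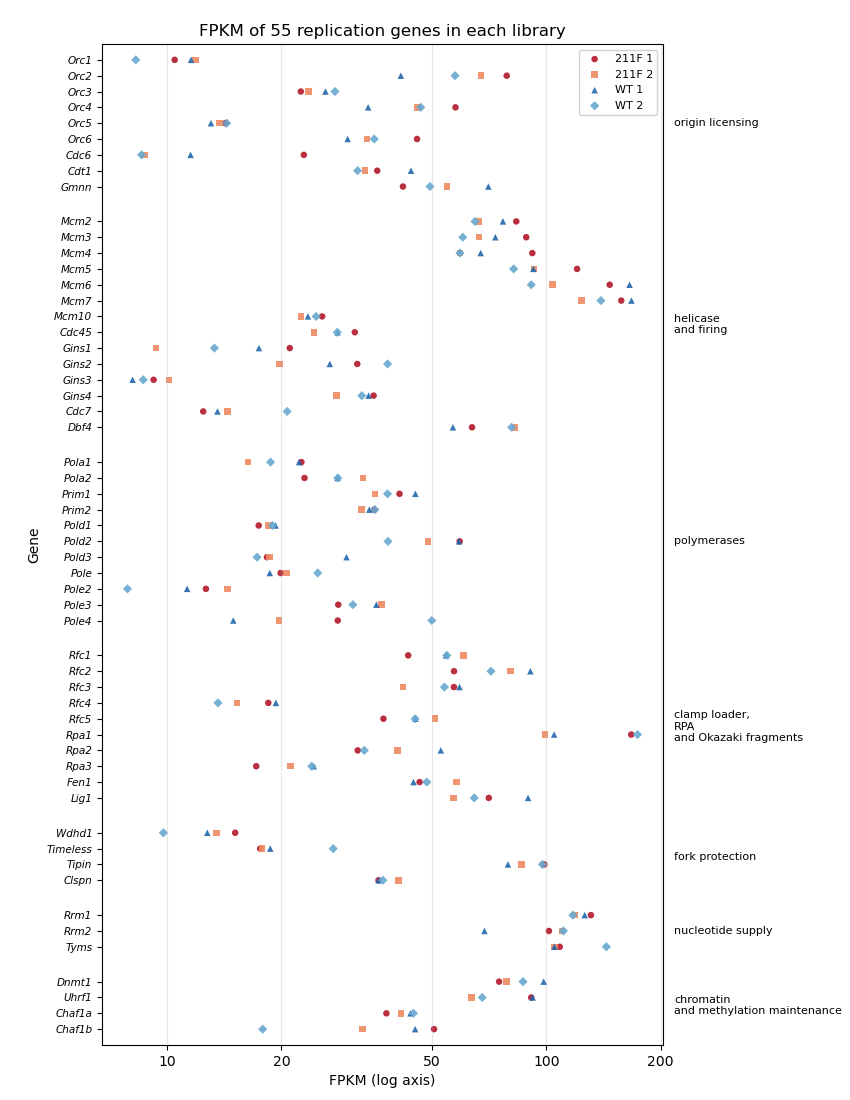
FPKM of the 55 genes in each of the 4 libraries on a log axis, grouped by role. Most genes hold the 4 libraries within a short span, and Cdc6, Gins1, Pole4 and Chaf1b spread by over 1 log2 unit.

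Of the 11 polymerase and primase genes, only Pole4 had a range of 1 log2 unit over the libraries. Prim2, the large primase subunit, was the steadiest of all 55 genes, at 35.1 and 32.5 FPKM in 211F, against 34.1 and 35.3 FPKM in WT. Prim1, the small subunit that makes the RNA primer, was at 40.98 and 35.3 FPKM in 211F, against 45.1 and 38.1 FPKM in WT. Pold1, the catalytic subunit of polymerase delta, was nearly as steady, with 17.4 and 18.5 FPKM in 211F, against 19.3 and 18.95 FPKM in WT. Both 211F libraries of Pold1 were below both WT libraries, but the difference of -0.087 ± 0.24 (SE) is well within the error. Pola1, the catalytic subunit of polymerase alpha, was at 22.6 and 16.3 FPKM in 211F, against 22.3 and 18.7 FPKM in WT, and its partner Pola2 at 23.02 and 32.8 FPKM in 211F, against 28.1 and 28.2 FPKM in WT. In Pola1 211F 2 was the lowest library and in Pola2 it was the highest.

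The subunit genes of polymerase epsilon varied unequally. Its catalytic subunit gene Pole was at 19.9 and 20.6 FPKM in 211F, against 18.6 and 24.9 FPKM in WT, a span of 1.34 times. Pole2, its second subunit, was at 12.6 and 14.4 FPKM in 211F, against 11.3 and 7.85 FPKM in WT, with both 211F libraries above both WT libraries and a difference of 0.48 ± 0.32 (SE). Pole3, a histone-fold subunit, ran from 28.2 FPKM in 211F 1 to 36.8 FPKM in 211F 2. Pole4 (chr6:82618992-82705365, minus strand), its histone-fold partner, was at 28.2 and 19.7 FPKM in 211F, against 14.9 and 49.9 FPKM in WT. The 2 WT libraries were the highest and lowest of the 4 for Pole4, 3.34 times apart, which was the widest ratio among the 55 genes. The delta subunit Pold3 was at 18.3 and 18.6 FPKM in 211F, against 29.7 and 17.2 FPKM in WT, high in WT 1 alone, and Pold2 ran from 38.2 FPKM in WT 2 to 59.1 FPKM in 211F 1.

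Clamp loader genes did not share an order of the libraries. Rfc1, the large subunit that binds PCNA, was at 43.2 and 60.5 FPKM in 211F, against 54.4 and 54.6 FPKM in WT, and Rfc2 at 57.1 and 80.4 FPKM in 211F, against 90.7 and 71.4 FPKM in WT. Rfc5 had 37.2 and 50.8 FPKM in 211F, against 45.1 and 45.1 FPKM in WT. In these 3 subunits 211F 1 was the lowest library, while in Rfc3 the lowest was 211F 2, with 57.02 and 41.8 FPKM in 211F, against 58.99 and 53.8 FPKM in WT. Rfc4 averaged 16.7 FPKM, below the other 4 subunits, whose means ran from 44.5 FPKM (Rfc5) to 74.9 FPKM (Rfc2). Exons of Rfc4 overlap Eif4a2 on the other strand, so its level is uncertain.

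Replication protein A, which coats single-stranded DNA, is built of 3 subunits. Rpa1, the largest, averaged 136 FPKM, Rpa2 39.5 FPKM and Rpa3 21.7 FPKM. Rpa1 was at 167 and 99.1 FPKM in 211F, against 105 and 174 FPKM in WT, so 211F 1 and WT 2 were high and 211F 2 and WT 1 low. Rpa2 had nearly the reverse order, with 31.8 and 40.4 FPKM in 211F, against 52.7 and 33.1 FPKM in WT. Rpa3 was at 17.2 and 21.1 FPKM in 211F, against 24.3 and 24.05 FPKM in WT, both 211F libraries below both WT libraries, with a difference of -0.33 ± 0.25 (SE).

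Of the genes that finish Okazaki fragments, Fen1 varied 1.30 times between its highest and lowest library and Lig1 1.57 times. Fen1, the flap endonuclease, was at 46.3 and 58.00 FPKM in 211F, against 44.6 and 48.4 FPKM in WT, with WT 1 lowest and 211F 2 highest. Lig1, the ligase that seals the nicks, was at 70.5 and 56.9 FPKM in 211F, against 89.4 and 64.5 FPKM in WT, with these 2 libraries in swapped places at the ends of its range. Their differences were 0.15 ± 0.24 and -0.26 ± 0.28 (SE). Exons of Fen1 overlap Tmem258, and those of Lig1 overlap Zswim9, on the other strand.

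Of the genes that hold the fork together, Clspn was even and the others less so. Clspn, the mediator claspin that links the fork to the Chk1 kinase, was at 36.1 and 40.8 FPKM in 211F, against 36.1 and 37.05 FPKM in WT. Timeless was at 17.6 and 17.8 FPKM in 211F, against 18.7 and 27.4 FPKM in WT, so that WT 2 was high and the other 3 libraries lay between 17.6 and 18.7 FPKM. Its binding partner Tipin had 98.8 and 85.9 FPKM in 211F, against 79.2 and 97.6 FPKM in WT, over 3 times the level of Timeless in every library. Wdhd1, which joins polymerase alpha to the helicase, was at 15.1 and 13.5 FPKM in 211F, against 12.8 and 9.77 FPKM in WT, higher in both 211F libraries by 0.33 ± 0.29 (SE). The Wdhd1 groups overlapped under quantile normalization and under scaling by the median of ratios.

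Nucleotide supply genes were abundant. Rrm1, the large subunit of ribonucleotide reductase, was at 131 and 119 FPKM in 211F, against 126 and 117 FPKM in WT, the smallest standard error of the 55 genes. Its S phase partner Rrm2 was at 102 and 110.0 FPKM in 211F, against 68.6 and 111 FPKM in WT, with WT 1 low and the other 3 libraries between 102 and 111 FPKM. Tyms, thymidylate synthase, was at 108 and 105 FPKM in 211F, against 105 and 144 FPKM in WT, with WT 2 high; a pseudogene, Tyms-ps, may share its reads.

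Among the genes that restore methylation and chromatin behind the fork, Dnmt1 (chr9:20907209-20959888, minus strand) was lower in both 211F libraries. This maintenance methyltransferase was at 75.01 and 78.6 FPKM in 211F, against 98.4 and 86.7 FPKM in WT, a difference of -0.26 ± 0.21 (SE). Uhrf1, which recruits Dnmt1 to newly copied DNA, was at 91.2 and 63.5 FPKM in 211F, against 91.98 and 67.7 FPKM in WT, and its library order was unlike that of Dnmt1. Chaf1a, the large CAF-1 subunit, was steady, at 37.8 and 41.3 FPKM in 211F, against 43.8 and 44.6 FPKM in WT. Like Dnmt1, it had both 211F libraries below both WT libraries, with a difference of -0.16 ± 0.21 (SE). Chaf1b (chr16:93883901-93906115, plus strand), the middle subunit of CAF-1, was at 50.5 and 32.8 FPKM in 211F, against 45.1 and 17.9 FPKM in WT, 2.83 times between its highest and lowest library. In 211F 1 and WT 1 Chaf1b was the higher of the pair, and in 211F 2 and WT 2 Chaf1a was.

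The 55 genes had a lower median range over the 4 libraries than the genes that passed the filter. The range, taken as the highest minus the lowest library on log2(FPKM + 1), had a median of 0.49 in the 55 genes and 0.82 over all genes tested. It reached 1 log2 unit in 4 of the 55 genes (7.27%), namely Cdc6 (1.32), Gins1 (1.09), Pole4 (1.67) and Chaf1b (1.45), against 40.0% of all genes tested. The 55 genes had a higher median level than all genes tested (37.5 against 15.4 FPKM). Over the 9911 genes that averaged 5 FPKM or more, which include all 55, the median range was 0.76, and 34.9% reached 1 log2 unit. With no filter on low values the direction turned, at 0.49 in the 55 genes and 0.46 over all genes, since genes averaging under 1 FPKM, which the added 1 holds close together, then enter. In 33 of the 55 genes the highest library was under 1.5 times the lowest. Without WT 2 the count at 1 log2 unit was 2 of 55, and without 211F 1 it was 2 of 55.

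**Figure D4:**
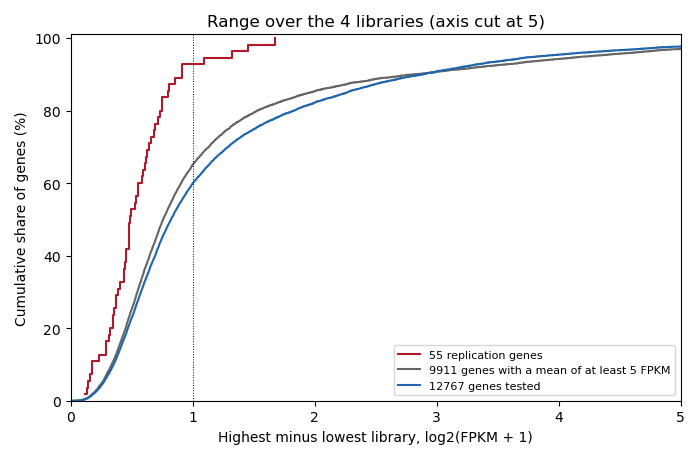
Cumulative share of genes (vertical axis, percent) by the range over the 4 libraries in log2(FPKM + 1) (horizontal axis) for the 55 replication genes, for genes averaging 5 FPKM or more and for all genes tested. At 1 log2 unit, the dotted line, 7.27% of the replication genes and 40.0% of all genes tested have a larger range.

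Set pair by pair, the libraries differed little in these genes whichever genotypes were paired. The median absolute difference over the 55 genes was 0.21 for 211F 1 with WT 1, 0.28 for 211F 1 with WT 2, 0.22 for 211F 2 with WT 1 and 0.18 for 211F 2 with WT 2. Within a genotype it was 0.32 for the 211F pair and 0.30 for the WT pair. The 2 pairs within a genotype thus had the largest values of the 6. Over all genes tested the same measure lay between 0.31 (211F 2 with WT 1) and 0.48 (the WT pair). No gene of the 55 differed by 1 log2 unit between 211F 1 and WT 1 or between 211F 2 and WT 1, against 20.1% and 10.4% of all genes tested. Between 211F 1 and WT 2 the count was 2, against 17.1%, and between 211F 2 and WT 2 it was 1, against 24.7%. The 211F pair gave 2 genes, against 19.1%, and the WT pair 2, against 24.5%.

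Which library was highest differed by role. 211F 1 was highest in 18 of the 55 genes, 211F 2 in 10, WT 1 in 15 and WT 2 in 12; over all genes tested these shares were 22.4%, 26.2%, 21.2% and 30.2%. In the helicase and firing group 211F 1 was highest in 8 of 14 genes. In the group of clamp loader, RPA and Okazaki fragment genes it was highest in 0 of 10 and lowest in 5, and WT 1 was highest in 6. The summed FPKM of the helicase and firing genes was 918 and 723 FPKM in 211F, against 851 and 744 FPKM in WT. That of the clamp loader, RPA and Okazaki fragment genes was 546 and 524 FPKM in 211F, against 584 and 582 FPKM in WT. In 211F 1 the first sum was the highest of the 4 libraries, and the second was below both WT values. Differences between these groups were not tested. Besides the genes already named, Orc1, Orc4, Orc6, Cdc45, Gins2, Pole, Rfc2, Rfc5, Wdhd1, Timeless and Chaf1a have exons that overlap a gene on the other strand. On the same strand, besides Mcm7, exons of Orc5 overlap Gm15421, those of Pole2 overlap Gm49384 and those of Rpa1 overlap Gm47300.

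**Figure D5:**
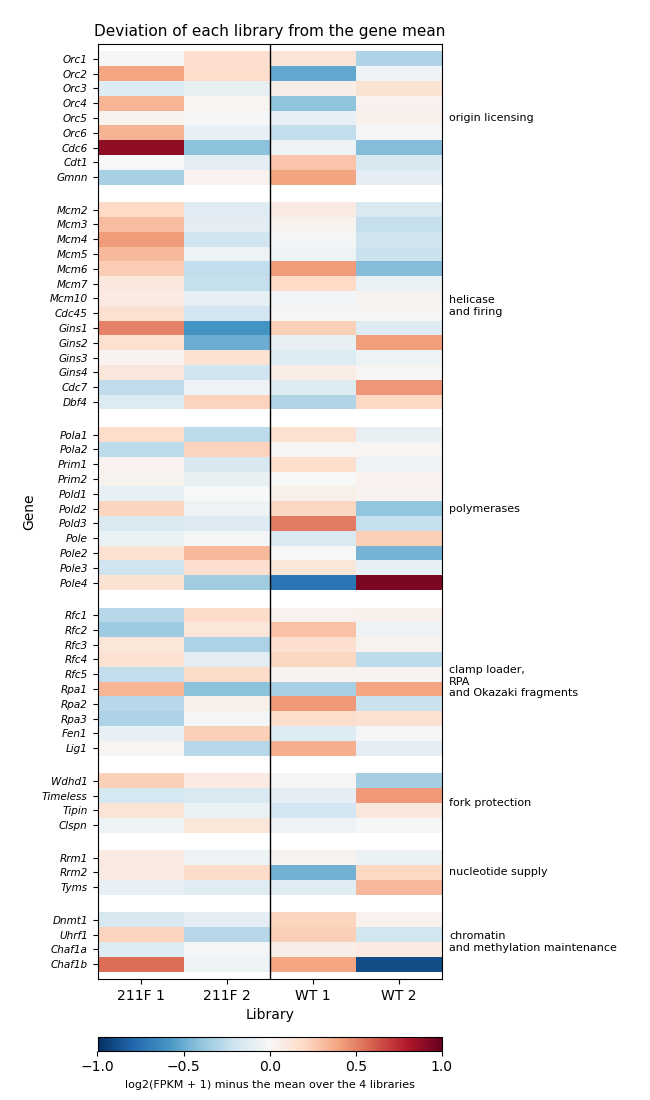
Deviation of each library from the mean of the gene over the 4 libraries, in log2(FPKM + 1), for the 55 genes grouped by role, with 211F left of the vertical line and WT right of it. Red is above the mean and blue below. 211F 1 is above the mean in all 6 MCM2-7 genes. Among the clamp loader and RPA genes it is below the mean in Rfc1, Rfc2, Rfc5, Rpa2 and Rpa3 and above it in Rfc3, Rfc4 and Rpa1.

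Values of the genes with and without an E2F motif in the window were set side by side, with no test. The 19 with a motif had a median difference of -0.083 and a median range of 0.49, and the 27 without one had -0.0030 and 0.48. 211F 1 was the highest library in 4 of the 19 and in 10 of the 27, and WT 1 in 9 of the 19 and in 4 of the 27.

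Other replication genes, a list of 36 outside the 55 that includes Pcna, gave no call either. In limma 0 of the 36 passed in either direction, and 0 had an unadjusted p under 0.05. Their differences had a median of -0.049, with 16 positive and 20 negative, and 5 of 36 had a range of at least 1 log2 unit. Pcna itself was at 173 and 119 FPKM in 211F, against 155 and 147 FPKM in WT, highest and lowest in the 2 211F libraries; its level does not show the 211F change and so does not check the labels. The 4 of smallest p were Tonsl, a fork repair scaffold, Supt16, a subunit of the FACT histone chaperone, Rnaseh2b, a subunit of the nuclease that removes ribonucleotides from DNA, and Donson, a fork stability factor. Tonsl was at 40.6 and 64.1 FPKM in 211F, against 81.4 and 78.4 FPKM in WT (-0.64 ± 0.31, SE). Supt16 was at 70.4 and 59.97 FPKM in 211F, against 50.8 and 43.7 FPKM in WT (0.46 ± 0.23, SE). Rnaseh2b was at 18.8 and 10.8 FPKM in 211F, against 8.89 and 8.45 FPKM in WT. In these 2 genes 211F 1 was highest and WT 2 lowest. Donson was at 12.9 and 9.32 FPKM in 211F, against 7.17 and 7.08 FPKM in WT. In each of these 4 the genotypes did not overlap, and every limma adjusted p was 0.9999. In the whole list 10 of 36 did not overlap, 7 higher and 3 lower in 211F, beside 26.8% of all genes tested.

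Of 20 genes for E2F factors, pocket proteins and S phase cyclins, 0 passed the limma test and 1 had an unadjusted p under 0.05, beside 1.89% of all genes tested. That gene was Rbl2, which encodes the pocket protein p130 that represses E2F targets in resting cells. Rbl2 was at 8.52 and 8.27 FPKM in 211F, against 18.4 and 14.8 FPKM in WT, a difference of -0.90 ± 0.29 (SE; limma adjusted p = 0.9999). E2f6, a repressive family member, was at 13.5 and 16.9 FPKM in 211F, against 8.79 and 9.55 FPKM in WT. Cdc25a, the phosphatase that activates Cdk2, was at 17.4 and 20.5 FPKM in 211F, against 12.7 and 15.1 FPKM in WT. Rbl2 and Tfdp2 were lower in both 211F libraries, and E2f6 and Cdc25a were higher in both; these are the 4 of 20 whose genotypes did not overlap, beside 26.8% of all genes tested. Tfdp2, a dimer partner of E2F, was at 15.9 and 20.1 FPKM in 211F, against 25.99 and 21.5 FPKM in WT. E2f1, an activating family member, was at 25.3 and 28.3 FPKM in 211F, against 30.9 and 24.3 FPKM in WT, and its genotypes overlapped.

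The libraries were ordered otherwise in genes of G2 and mitosis. In a list of 20 such genes WT 2 was highest in 15 and 211F 1 in 0, beside 30.2% and 22.4% of all genes tested. The list summed to 2038 and 2672 FPKM in 211F, against 2272 and 2946 FPKM in WT. In limma 0 of the 20 passed and 0 had an unadjusted p under 0.05. Their median range was 0.78, beside 0.49 in the 55 replication genes and 0.82 over all genes tested.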

How the data were processed

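RNA was measured in 4 libraries, 2 labelled PCNA 211F and 2 labelled PCNA WT. The authors deposited a single table of FPKM values for 50679 Ensembl genes. TopHat2 2.0.13, DESeq2 and GRCm38 are listed in the submitters' processing notes, without role or order. No source used here states which program made the FPKM, with which annotation, or how it treated strand. Per the labels' protocols the library kit was strand-specific. Of the genes, 50369 were matched to a symbol by identifier, and gene positions were taken from GENCODE M21 (GRCm38).

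Counts were not in the table. FPKM sums ran from 544399 (WT 1) to 564977 (211F 1). Whole multiples of 1 fragment (tolerance 0.1) made up 82.8% to 88.0% of the low values in 1974 long genes (3000 bp or more) that have 1 annotated transcript. A fragment in 1 kb was worth 0.0261 FPKM in 211F 1, 0.0303 in 211F 2, 0.0285 in WT 1 and 0.0166 in WT 2. If libraries were not rescaled, WT 2 was 1.72 times as deep as WT 1. On the longest annotated transcript, the smallest estimate for any of the 55 genes in a library was then about 335 fragments. That is a counting error of about 5.47%, which covers counting only. Shorter transcripts would give fewer fragments and a larger error.

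Values were analysed as log2(FPKM + 1), which understates the change of low genes. The 12767 genes averaging 1 FPKM or more were tested with limma 3.58.1 in R 4.3.3, two-sided, with an intensity trend and Benjamini-Hochberg adjustment at 0.05 over all of them. Given the spread between these libraries, a gene that the fit did not call may still differ between the genotypes. All 55 genes, and the 4 genes of smallest p in each of the lists of other replication genes and of E2F factors, were named by rule; E2f1, Epcam and markers were given for their values per library. The genes and lists were chosen with earlier results of these data known. Antisense neighbours overlap exons of 16 of the 55 genes, and genes on the same strand overlap 4. Promoter windows are those of the RefSeq table; 53 of 59 held the first 20 bases of a GENCODE transcript on the strand of the gene. Protein sequences were not used here. Alternatives were each library left out, the replicate number as a block, pseudocounts of 0.1 and 5, no filter, a stricter filter at 5 FPKM, 3 other scalings between libraries and no intensity trend.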

Additional observations from a re-analysis of the deposited data

How the results depend on the processing

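limma called 0 of 12767 genes and 0 of the 55 replication genes higher or lower in 211F, and likewise 0 in each of the 13 alternatives; no gene of the 55 had an unadjusted p under 0.05 in any of them, and the smallest adjusted p of any of the 55 was 0.783. Over all genes, the count at an unadjusted p under 0.05 was 241, but 142 with the replicate block, 745 with no filter, where more genes were tested, and 843 without WT 1; the cause was not tested. Nothing in the labels makes the replicate numbers a pairing, and across genes the deviations of libraries sharing a number correlated at r = -0.465; the block moved no call among the 55. The median difference of the 55 genes was -0.039, and leaving out each library gave -0.087 to 0.044, with the positive value without 211F 2. It lay between -0.083 and -0.034 under the other settings run on all libraries, and in 211F 2 minus WT 1 alone, chosen after seeing the data, it was -0.082. The count with a range of at least 1 log2 unit was 4, from 2 to 4 when a library was left out, and 0 between 211F 2 and WT 1 alone, where fewer libraries enter. The share of all genes tested with such a range was 25.4% with a pseudocount of 5 and 22.7% with no filter, where the median range over all genes was 0.46, below the 0.49 of the 55. Both 211F libraries lay above both WT libraries in 5 genes and below them in 6, but above in 3 and below in 8 under quantile normalization, 3 and 7 under median of ratios scaling and 4 and 8 with an equal FPKM sum; Mcm5 overlapped in all 3, Wdhd1 in quantile and median of ratios, Prim2 and Tyms came to lie lower with an equal sum and quantile, and Cdc7 with median of ratios. Direction turned under another scaling in 5 genes near 0, to -0.0053 for Orc5 (median of ratios), -0.0044 for Mcm2 and -0.014 for Tipin (quantile), -0.030 and -0.0011 for Rrm1 (quantile and median of ratios), and -0.023, -0.066 and -0.030 for Mcm6 (an equal FPKM sum, quantile and median of ratios). Leaving out a library turned the direction of 36 of the 55 genes and left that of 19, and the lone library of a genotype is then assumed to vary like the others. The turned genes ranged from -0.047 to 0.39 for Orc1, -0.035 to 0.093 for Orc5, -0.17 to 1.13 for Cdc6, -0.34 to 0.12 for Cdt1, -0.088 to 0.24 for Mcm2, -0.0021 to 0.41 for Mcm3, -0.087 to 0.54 for Mcm4, -0.42 to 0.43 for Mcm6, -0.30 to 0.044 for Mcm7, -0.091 to 0.085 for Mcm10, -0.20 to 0.15 for Cdc45, -0.65 to 0.44 for Gins1, -0.25 to 0.072 for Gins4, -0.16 to 0.35 for Dbf4, -0.30 to 0.14 for Pola1, -0.28 to 0.22 for Pola2, -0.090 to 0.018 for Prim2, -0.13 to 0.48 for Pold2, -0.66 to 0.093 for Pold3, -0.29 to 0.11 for Pole, -0.22 to 0.15 for Pole3, -1.05 to 0.63 for Pole4, -0.33 to 0.15 for Rfc1, -0.42 to 0.017 for Rfc3, -0.19 to 0.28 for Rfc4, -0.27 to 0.17 for Rfc5, -0.44 to 0.31 for Rpa1, -0.54 to 0.11 for Rpa2, -0.0048 to 0.31 for Fen1, -0.083 to 0.22 for Tipin, -0.019 to 0.15 for Clspn, -0.034 to 0.11 for Rrm1, -0.069 to 0.62 for Rrm2, -0.43 to 0.024 for Tyms, -0.31 to 0.21 for Uhrf1, -0.14 to 1.15 for Chaf1b. Outside the 55 the range was -0.34 to 0.20 for Pcna and -1.24 to 6.63 for Epcam. With 2 libraries a genotype, fragment counts limit these values less than the spread between libraries does.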
